A study of Mus musculus with 6 samples.

Results

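RNA-seq of mouse liver was read for 9 genes of the methionine cycle, of transsulfuration and of folate metabolism: Mat1a, Gnmt, Ahcy, Bhmt, Bhmt2, Cbs, Cth, Shmt1 and Pemt. They were chosen by name and found by matching the Ensembl identifiers of the count table to GENCODE M21 symbols, which located 9 of 9 among 20894 genes. The IRF3-2D group held 3 liver samples from Irf3LSL-2D mice that had received AAV8-TBG-Cre, an adeno-associated virus whose TBG promoter is active in hepatocytes, so that Cre turns on the allele's IRF3-2D, a form of the antiviral transcription factor IRF3 made to be active without a virus. The Ctrl group held 3 liver samples from mice that carry the same allele and had received AAV8-TBG-GFP. All 6 samples were taken 2 h after an intraperitoneal dose of 3 g/kg ethanol, and the labels used here state no strain background, sex or age, nor whether each sample is a separate mouse. Because one virus carries Cre and the other GFP, the effect of the viral cargo and the effect of IRF3-2D cannot be told apart.

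In hepatocytes, methionine adenosyltransferase makes S-adenosylmethionine (SAM), the cell's main methyl donor, from methionine. Methyltransferases use SAM and leave S-adenosylhomocysteine, which is split into adenosine and homocysteine. Homocysteine is either methylated back to methionine, with betaine or methyltetrahydrofolate as the donor, or drawn through transsulfuration to cysteine, the precursor of glutathione and taurine. Liver is the main site of these reactions in mammals, and ethanol is a known disturber of them.

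Library totals were 12054096 to 13606973 counts in IRF3-2D and 13940893 to 14830629 in Ctrl. Irf3 averaged 120 ± 15.3 CPM in IRF3-2D and 49.7 ± 9.34 CPM in Ctrl samples (SD, n = 3 each), with no overlap between groups (reads of the allele and of native Irf3 are counted together). CPM are counts relative to library size, scaled with TMM, edgeR's method of matching libraries on the bulk of their genes. Alb alone took 5.66% to 6.23% of counts in IRF3-2D and 8.20% to 12.7% in Ctrl libraries. Of 14 hepatocyte markers, 2 were called higher and 9 lower, with a summed level of 87101 to 100162 CPM in IRF3-2D and 154150 to 204940 CPM in Ctrl samples. In bulk tissue fewer cells of a type and less RNA per cell cannot be told apart. Of 12 macrophage markers tested 4 were called higher, and of 10 endothelial markers tested 5 were called lower. The 13 macrophage markers with a row summed to 973 to 1323 CPM in IRF3-2D and 567 to 684 CPM in Ctrl. The 11 endothelial markers with a row summed to 348 to 468 CPM in IRF3-2D and 529 to 553 CPM in Ctrl. Of other markers, 1 of 8 stellate was called lower, and 1 of 2 T and NK and 1 of 3 neutrophil and monocyte were called higher. Over all genes tested 13.2% were called higher and 13.1% lower. With library totals alone, in place of TMM, the calls were 3 higher and 4 lower for hepatocytes, 8 higher for macrophages and 1 higher with 0 lower for endothelium. Over all genes tested, 41.6% were then called higher and 5.29% lower. The part of these cell types in the results below was not tested.

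Of the 9 genes, 7 had enough counts to be tested. In IRF3-2D samples 3 of the 7 were called lower (Gnmt, Bhmt and Pemt) and 1 was called higher (Bhmt2), by edgeR's quasi-likelihood test at a Benjamini-Hochberg adjusted p under 0.05 over all genes. Mat1a, Cbs and Cth were not called. Over all 10802 genes tested, 26.3% were called, 13.2% higher and 13.1% lower. The groups did not overlap for 5 of the 7, with Mat1a, Gnmt, Pemt and Bhmt lower and Bhmt2 higher, while over all genes tested this held for 44.9% (23.7% higher and 21.2% lower). The count of 3 lower became 1 without IRF3-2D replicate 1 or 2 or Ctrl replicate 3. The median log2 fold change of the 7 was -0.37, against 0.03 over all genes tested and -0.58 over the 14 hepatocyte markers. The result depends on how libraries are matched: with library totals alone the median of all genes moved to 0.49, and then 1 of the 7 was called higher (Bhmt2) and 1 lower (Gnmt), where 41.6% of all genes were called higher and 5.29% lower.

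**Figure D1:**
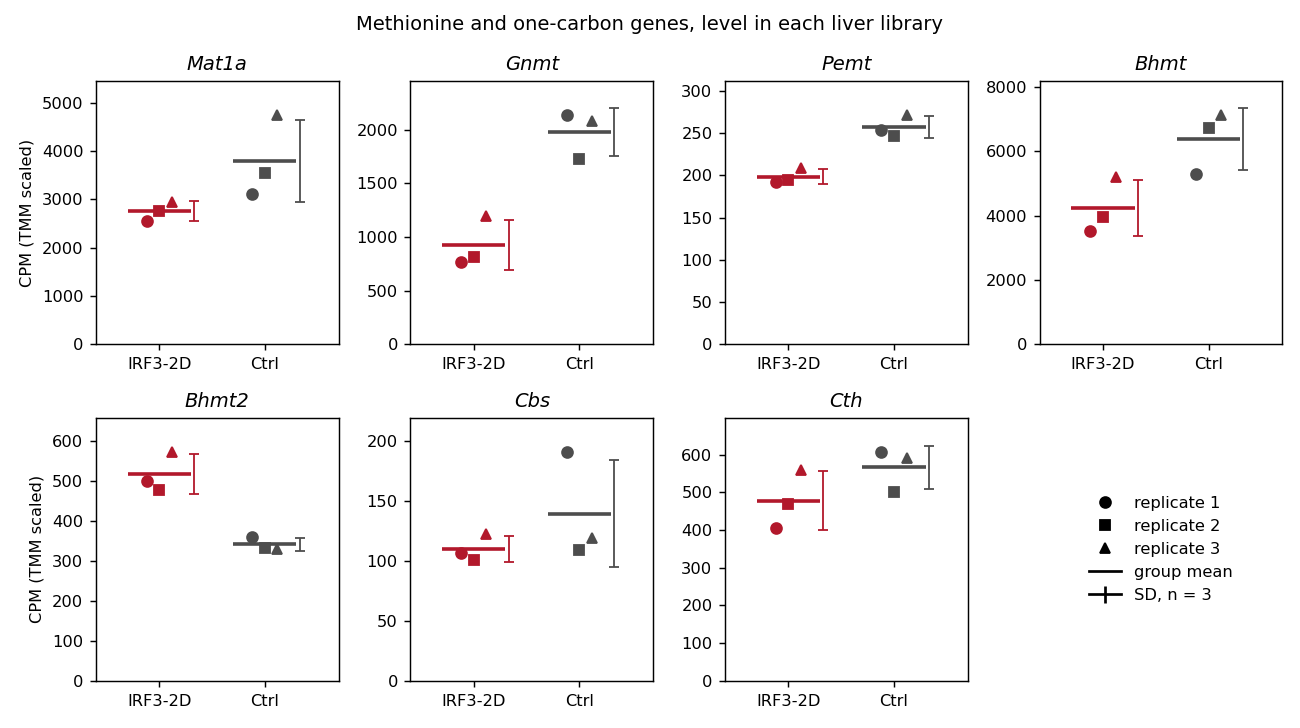
CPM (TMM scaled, axes from 0) of the 7 tested genes in each library, IRF3-2D on the left and Ctrl on the right, with the group mean (line) and SD (bar, n = 3). Gnmt, Pemt, Bhmt and Mat1a lie below Ctrl in each IRF3-2D library, Bhmt2 lies above, and Cbs and Cth overlap.

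Synthesis of SAM begins with Mat1a (chromosome 14, 41105035 to 41124412, plus strand; all gene positions are GRCm38, from GENCODE M21), the liver-type methionine adenosyltransferase. Mat1a stood at 2541, 2766 and 2955 CPM in IRF3-2D samples, against 3102, 3537 and 4739 CPM in Ctrl samples. The groups did not overlap, and Ctrl replicate 3 was the highest library by a wide margin. The log2 fold change of -0.46 (SE 0.16) missed the threshold with edgeR (adjusted p = 0.0756), while DESeq2 called it (-0.49, adjusted p = 0.0103) and so did edgeR without Ctrl replicate 1 (-0.59, adjusted p = 0.0301). With library totals alone it was -0.0090 (adjusted p = 0.968), and without Ctrl replicate 3 it was -0.27 (adjusted p = 0.17). Mat2a, the form typical of extrahepatic and growing cells, stood at 208, 268 and 261 CPM in IRF3-2D samples, against 142, 174 and 177 CPM in Ctrl samples. Mat2a rose 1.49-fold (log2 fold change 0.58, SE 0.14, adjusted p = 0.0206 by edgeR), a call lost without IRF3-2D replicate 2 (0.51) or 3 (0.52).

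The balance of the 2 SAM synthetase genes can be read inside each library, where scaling between libraries cancels. Mat2a counts were 8.17%, 9.70% and 8.83% of Mat1a counts in IRF3-2D libraries, against 4.57%, 4.92% and 3.74% in Ctrl libraries. All 3 IRF3-2D ratios lay above all 3 Ctrl ratios, and the geometric mean ratio was 2.03-fold higher. By CPM, Mat2a lay higher and Mat1a lower in each IRF3-2D library than in each Ctrl library. The separation of the ratios follows from that and is no separate result. With 3 against 3 samples a two-sided exact permutation test cannot go below p = 0.1, which is the p it gave here (0.15 adjusted over the 6 ratios computed). Mat1a and Mat2a have no 31-base word in common among their annotated transcripts.

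Gnmt, glycine N-methyltransferase, uses up SAM to make sarcosine from glycine and is among the most abundant methyltransferases of liver. Gnmt (chromosome 17, 46725664 to 46729168, minus strand) stood at 769, 815 and 1194 CPM in IRF3-2D samples, against 2134, 1726 and 2079 CPM in Ctrl samples. No IRF3-2D library reached the lowest Ctrl library. Gnmt fell 2.14-fold (log2 fold change -1.10, SE 0.18, adjusted p = 0.0055 by edgeR), and it was called lower with each of the other tools, scalings and filters and without any single library (-1.33 to -0.98). None of its 31-base words occurs in transcripts of another gene. Within libraries the ratio of Gnmt to Mat1a counts was 0.303, 0.295 and 0.404 in IRF3-2D, against 0.688, 0.488 and 0.439 in Ctrl. It was 1.60-fold lower in IRF3-2D with no overlap (exact permutation p = 0.1, the smallest possible, and 0.15 adjusted). Leaving out 1 library gave log2 differences of -0.82 to -0.49 (exact permutation p = 0.1 to 0.2).

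Pemt, phosphatidylethanolamine N-methyltransferase, spends SAM on making phosphatidylcholine. Pemt (chromosome 11, 59970614 to 60046489, minus strand) stood at 193, 194 and 208 CPM in IRF3-2D samples, against 254, 247 and 271 CPM in Ctrl samples. The 2 groups were tight and did not overlap. Pemt fell 1.30-fold (log2 fold change -0.37, SE 0.08, adjusted p = 0.0163 by edgeR), but with library totals alone its log2 fold change turned to 0.077, and its call was lost without IRF3-2D replicate 1 (-0.36) or 2 (-0.36) or Ctrl replicate 3 (-0.34). The ratio of Pemt to Gnmt counts was 0.250, 0.238 and 0.175 in IRF3-2D, against 0.119, 0.143 and 0.130 in Ctrl libraries. It was 1.67-fold higher in IRF3-2D with no overlap (exact permutation p = 0.1, the smallest possible, and 0.15 adjusted). Leaving out 1 library gave log2 differences of 0.65 to 0.90 (exact permutation p = 0.1 to 0.2).

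Ahcy, which splits S-adenosylhomocysteine, and Shmt1, the cytosolic enzyme that moves a carbon unit from serine to folate, were listed near 0 in the table. Ahcy had 2, 0 and 0 counts in IRF3-2D libraries and 2, 1 and 2 in Ctrl libraries. Shmt1 had 0, 0 and 7 counts in IRF3-2D libraries and 0, 0 and 4 in Ctrl libraries. On the same CPM scale 3 counts are 0.194 to 0.203 in IRF3-2D and 0.234 to 0.252 in Ctrl libraries, the limit that a count of 0 allows, for counting error only. Both enzymes are known to be abundant in liver, the cause of the low entries was not tested, and no fold change is given. Of the 31-base words of Ahcy 71.4% occur in transcripts of other genes, most of them in Gm4737, which is itself listed at 0 in all 6 libraries. For Shmt1 that share is 0.962%.

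Betaine-homocysteine methyltransferases return homocysteine to methionine (Bhmt), or, for Bhmt2, use S-methylmethionine as the donor. The 2 paralogs moved in opposite directions in IRF3-2D samples. Bhmt (chromosome 13, 93616675 to 93637961, minus strand) stood at 3528, 3943 and 5210 CPM in IRF3-2D samples, against 5281, 6734 and 7117 CPM in Ctrl samples. The highest IRF3-2D library came just under the lowest Ctrl library. Bhmt fell 1.51-fold (log2 fold change -0.59, SE 0.18, adjusted p = 0.045 by edgeR). That call sits at the threshold, and was lost with library totals alone (-0.14), with no filter on low counts (-0.58, adjusted p = 0.0503) and without IRF3-2D replicate 1 (-0.48) or 2 (-0.54) or Ctrl replicate 2 (-0.55) or 3 (-0.51). Bhmt shares 29.8% of its 31-base words with other genes, chiefly with Gm5096, which had 0 to 4 counts per library.

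Bhmt2 (chromosome 13, 93655720 to 93674302, minus strand) stood at 500, 477 and 572 CPM in IRF3-2D samples, against 360, 333 and 330 CPM in Ctrl samples. Each IRF3-2D library was above each Ctrl library. Bhmt2 rose 1.51-fold (log2 fold change 0.60, SE 0.10, adjusted p = 0.00499 by edgeR), and was called higher with each of the other tools, scalings and filters and without any single library (0.51 to 0.65). Bhmt2 counts were 14.2%, 12.1% and 11.0% of Bhmt counts in IRF3-2D libraries, against 6.81%, 4.95% and 4.64% in Ctrl libraries. The geometric mean ratio was 2.29-fold higher in IRF3-2D, with no overlap (exact permutation p = 0.1, the smallest possible, and 0.15 adjusted). That separation had to follow, as Bhmt2 lay higher and Bhmt lower by CPM in each IRF3-2D library than in each Ctrl library. The 2 paralogs have 40 words of 31 bases in common, 1.66% of those of Bhmt2 and 0.695% of those of Bhmt.

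Bhmt and Bhmt2 lie side by side, and on the other side of Bhmt2 is Dmgdh, which encodes the mitochondrial enzyme that oxidises dimethylglycine, the product that betaine leaves after giving its methyl group. Bhmt2 and Dmgdh start back to back on opposite strands, with 130 bases between their annotated starts, and 17758 bases separate Bhmt2 from Bhmt. The 300 bases around the start of Bhmt2 (250 before and 50 after, minus strand of chr13:93674253-93674552) are shown because both Bhmt2 and Dmgdh start within them, with the bases between the 2 starts in capitals. The same window of Bhmt (minus strand of chr13:93637709-93638008) is shown beside it, with capitals marking CAAAGGTCA, a sequence of the kind bound by HNF4A and related nuclear receptors. Both are RefSeq sequences on GRCm38.p6.
Bhmt2: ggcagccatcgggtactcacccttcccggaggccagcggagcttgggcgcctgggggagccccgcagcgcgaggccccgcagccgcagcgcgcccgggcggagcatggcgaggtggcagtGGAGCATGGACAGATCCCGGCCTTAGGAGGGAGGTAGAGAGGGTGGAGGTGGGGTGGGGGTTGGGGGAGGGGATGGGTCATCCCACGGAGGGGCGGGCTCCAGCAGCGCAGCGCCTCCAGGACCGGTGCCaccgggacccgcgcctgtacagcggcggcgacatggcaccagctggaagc
Bhmt: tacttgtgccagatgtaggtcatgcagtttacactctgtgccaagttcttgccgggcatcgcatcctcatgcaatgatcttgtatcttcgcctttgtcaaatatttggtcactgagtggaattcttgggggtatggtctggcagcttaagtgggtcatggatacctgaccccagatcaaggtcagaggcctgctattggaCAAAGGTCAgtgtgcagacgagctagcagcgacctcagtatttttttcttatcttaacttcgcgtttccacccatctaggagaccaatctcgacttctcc

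The 2 windows differ in base composition, with 73.7% G and C in that of Bhmt2 and 48.0% in that of Bhmt. CAAAGGTCA, searched on both strands, is in 0.478% of the 32851 promoter windows of the table and, among the windows of 7 matched members, in that of Bhmt alone (Mat1a and Cth were not matched). CAAAGTCCA, a related sequence also searched on both strands, is in 0.475% of all windows and in none of those 7. GAAA followed by any 2 bases and another GAAA, the core of the interferon-stimulated response element that IRF proteins bind, searched on both strands, are in 3.44% of all windows and in none of those of the 7 members or of Dmgdh. The windows of Pemt (chr11:60036956-60037255 and chr11:60040139-60040438) lie inside the gene and do not hold its GENCODE start at 60046489. That of Shmt1 (chr11:60811216-60811515) likewise does not hold the GENCODE start at 60811718. Such a match or its lack is a description of letters in 300 bases and says nothing of binding.

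Dmgdh stood at 471, 476 and 608 CPM in IRF3-2D samples, against 660, 945 and 864 CPM in Ctrl samples. Dmgdh fell 1.59-fold (log2 fold change -0.67, SE 0.16, adjusted p = 0.0241 by edgeR), opposite to Bhmt2 across the 130 bases and alike in direction to Bhmt. Its call was lost with library totals alone (-0.21) and without IRF3-2D replicate 1 (-0.60) or 2 (-0.61) or Ctrl replicate 2 (-0.56) or 3 (-0.63). Chosen after their values were seen, the counts of Bhmt2 divided by those of Dmgdh ran from 0.940 to 1.06 in IRF3-2D libraries, against 0.353 to 0.545 in Ctrl libraries. Of the 17 neighbours of the 9 genes that are no members themselves, 13 were tested and 4 called, or 30.8%, near the 26.3% of all genes tested. Rai1 (log2 fold change 1.54), U2af1 (0.42) and Smcr8 (0.34) were called higher and Dmgdh lower. Smcr8 overlaps Shmt1 on the opposite strand. The call of Rai1 was lost without IRF3-2D replicate 2 (1.48), that of U2af1 without any 1 library but Ctrl replicate 1 (0.34 to 0.43), and that of Smcr8 without IRF3-2D replicate 1 (0.33) or 2 (0.33) or Ctrl replicate 3 (0.34).

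**Figure D2:**
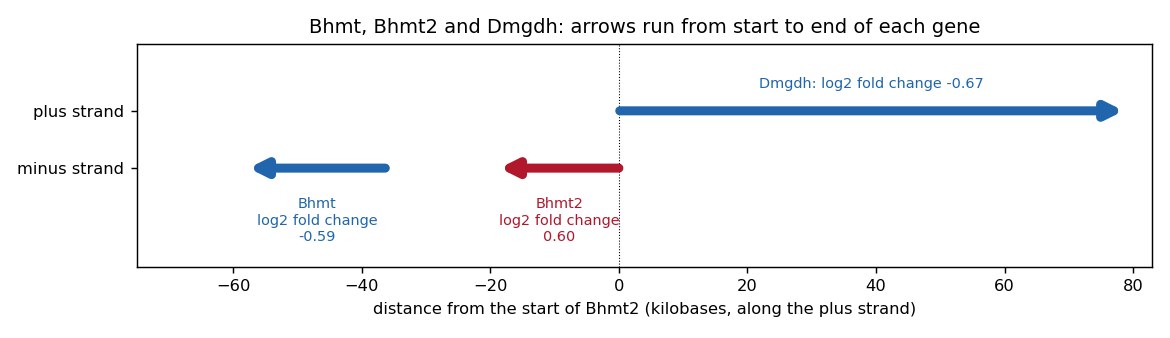
Map of Bhmt, Bhmt2 and Dmgdh on chromosome 13, to scale, as distance in kilobases from the start of Bhmt2; arrows run from each gene's start to its end on the strand named at the left, and labels give the log2 fold change of IRF3-2D over Ctrl. Bhmt2 (0.60, red, called higher) lies between Bhmt (-0.59) and Dmgdh (-0.67), both called lower (blue).

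Transsulfuration passes homocysteine through cystathionine to cysteine. Cbs, cystathionine beta-synthase (chromosome 17, 31608894 to 31637238, minus strand), stood at 107, 101 and 122 CPM in IRF3-2D samples, against 190, 109 and 119 CPM in Ctrl samples. The groups overlapped, with 1 high Ctrl library. Its log2 fold change was -0.34 (SE 0.21, adjusted p = 0.283 by edgeR), and -0.05 without Ctrl replicate 1. Cth, cystathionine gamma-lyase (chromosome 3, 157894248 to 157925077, minus strand), stood at 404, 468 and 560 CPM in IRF3-2D samples, against 607, 502 and 590 CPM in Ctrl samples. Its log2 fold change was -0.25 (SE 0.14, adjusted p = 0.242 by edgeR), and both values turned positive with library totals alone (0.10 for Cbs and 0.20 for Cth).

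The ratio of Cth to Cbs counts was 3.79, 4.64 and 4.59 in IRF3-2D libraries, against 3.19, 4.62 and 4.97 in Ctrl libraries (exact permutation p = 0.9). Its log2 difference of 0.05 turned to -0.15 without Ctrl replicate 1 and to -0.0024 without IRF3-2D replicate 2. The ratio of Bhmt to Cbs counts was 33.1, 39.1 and 42.7 in IRF3-2D and 27.7, 61.9 and 60.0 in Ctrl libraries (exact permutation p = 0.5). It sets RNA of a remethylation gene against RNA of a transsulfuration gene and does not measure flux through either pathway. For Bhmt over Cbs the groups overlap through Ctrl replicate 1 alone, and the log2 difference of -0.30 became -0.68 without it (exact permutation p = 0.1, the smallest possible), -0.098 without Ctrl replicate 2, -0.12 without Ctrl replicate 3 and -0.20 without IRF3-2D replicate 1.

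**Figure D3:**
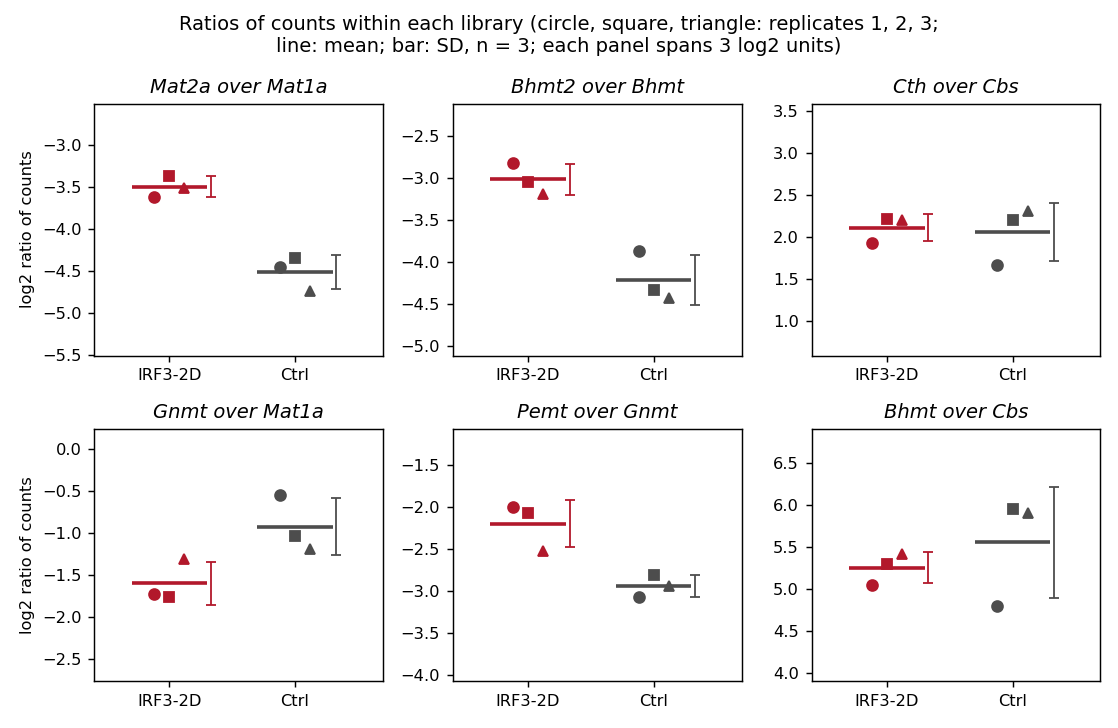
Log2 ratio of the counts of 2 genes within each library, IRF3-2D on the left and Ctrl on the right of each panel, with replicates 1, 2 and 3 as circle, square and triangle, the mean as a line and the SD as a bar (n = 3). The groups lie apart for Mat2a over Mat1a, Bhmt2 over Bhmt, Gnmt over Mat1a and Pemt over Gnmt, and overlap for Cth over Cbs and Bhmt over Cbs.

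Per kilobase of the longest annotated coding transcript, the order of levels was Bhmt, Gnmt, Mat1a and Cth in both groups. Bhmt averaged 1698 ± 352 CPM per kilobase in IRF3-2D and 2561 ± 389 in Ctrl, and Gnmt 895 ± 225 in IRF3-2D and 1913 ± 214 in Ctrl (SD, n = 3 each). Gnmt and Mat1a (794 ± 59.7) were not apart beyond their spread in IRF3-2D samples, whereas Gnmt lay above Mat1a (1094 ± 244) in each Ctrl sample. Pemt stood above Bhmt2 in Ctrl samples (256 ± 12.4 against 138 ± 6.60 CPM per kilobase), and the 2 lay within their spread of each other in IRF3-2D samples (198 ± 8.77 and 209 ± 20.1). Cbs was the lowest tested gene in both groups, at 17.6 ± 1.75 and 22.4 ± 7.16 CPM per kilobase, with a longest transcript of 6226 bases. All 9 genes together held 0.937% to 1.21% of counts in IRF3-2D and 1.05% to 1.32% in Ctrl libraries.

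Bhmt2 had the smallest adjusted p of the called members, and 3 genes followed its profile over the 6 libraries most closely, by Euclidean distance of centred log2 CPM: Chd1l (distance 0.127), Kansl1 (0.143) and Ip6k2 (0.146). Their log2 fold changes were 0.66, 0.50 and 0.59, each called higher by edgeR. A rise like that of Bhmt2 follows from the way they were picked and is no separate result. The call of Kansl1 was lost without IRF3-2D replicate 1 (0.52) or Ctrl replicate 2 or 3 (0.48 each).

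Beyond the 9 genes, 100 further genes of the pathway were listed by role in 9 lists, and 88 were tested. The lists were made with earlier results of these data known, so the shares below are no independent test. Of these 88, 30 were called lower and 7 higher in IRF3-2D samples, or 34.1% and 7.95%, against 13.1% and 13.2% of all genes. The 7 higher became 2 when IRF3-2D replicate 1 or 3 was left out, and became 4 when replicate 2 of either group was. With library totals alone 14 of the 88 were lower and 25 higher, where 5.29% of all genes were called lower and 41.6% higher. All 14 of these lower genes were among the 30, the 7 higher genes were called higher there too, and 0 of the 30 were called higher. Library totals alone move genes upward as a whole, with the median of all genes going from 0.03 to 0.49. This overlap of calls largely follows from that shift and is no separate result.

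Adk, adenosine kinase, which removes the adenosine freed from S-adenosylhomocysteine, was at 329 ± 32.9 CPM in IRF3-2D and 595 ± 35.7 CPM in Ctrl samples (SD, n = 3 each), 1.81-fold lower (adjusted p = 0.00138 by edgeR). Adk and Mat2a were the calls among 5 genes of SAM synthesis and its regulation. The count of 1 lower became 2 with RLE or upper-quartile scaling, at a mean count of at least 50 and with DESeq2. It also became 2 without Ctrl replicate 3, and the 1 higher became 0 without IRF3-2D replicate 2 or 3. Of 10 other methyltransferases that use SAM, 3 were called lower and 0 higher by edgeR (0 higher also at an unadjusted p under 0.05, with DESeq2 and with limma-voom). DESeq2 called 5 lower, and with library totals alone 2 were lower and 2 higher. Over all genes tested edgeR called 13.1% lower and 13.2% higher, or 5.29% and 41.6% with library totals alone. Inmt, indolethylamine N-methyltransferase, was at 23.5, 27.2 and 32.3 CPM in IRF3-2D samples, against 585, 413 and 654 CPM in Ctrl samples, a 19.9-fold fall (log2 fold change -4.31, SE 0.22, adjusted p = 4.41e-05 by edgeR). Gamt, which makes creatine and is a main consumer of SAM, fell 2.52-fold (adjusted p = 0.00203), and As3mt, which methylates arsenic, fell 1.57-fold (adjusted p = 0.0069), a call lost with library totals alone (-0.20). Of 6 genes of methionine re-formation by the cobalamin route, Mtr among them, edgeR and limma-voom called 0, DESeq2 called 1 lower, and 2 had an unadjusted p under 0.05 in edgeR, 1 in each direction. All 6 were called higher with library totals alone, as were 41.6% of all genes tested. The smallest p was that of Tcn2, the cobalamin carrier (log2 fold change -0.22, adjusted p = 0.0607). Tcn2 was called lower by edgeR with RLE scaling (adjusted p = 0.0411), with upper-quartile scaling (0.0441) and at a mean count of at least 50 (0.0392), and its log2 fold change turned to 0.24 with library totals alone.

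Dmgdh belongs to the list of betaine, choline and sarcosine genes. Of 12 tested, 6 were called lower and 0 higher by edgeR (0 higher also at an unadjusted p under 0.05, with DESeq2 and with limma-voom). The count was 3 lower and 0 higher with library totals alone. Over all genes tested the shares lower and higher were 13.1% and 13.2%, or 5.29% and 41.6% with library totals alone. Sardh, the mitochondrial enzyme that takes sarcosine, the product of Gnmt, back to glycine, was at 346, 365 and 538 CPM in IRF3-2D samples, against 1045, 1196 and 1185 CPM in Ctrl samples. That is a 2.74-fold fall with no overlap (adjusted p = 0.00152 by edgeR). Pipox, a peroxisomal sarcosine and pipecolate oxidase, fell 2.15-fold (adjusted p = 0.000536). Chpt1 and Etnk1, which make phospholipid from choline and ethanolamine precursors, fell 3.12-fold and 1.63-fold (adjusted p = 0.00495 and 0.0028), and the call of Etnk1 was lost with library totals alone (-0.25).

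Of 16 tested genes of the folate cycle, 7 were called lower and 0 higher by edgeR (1 higher at an unadjusted p under 0.05, with DESeq2 and with limma-voom). Scaled by library totals alone, 4 were lower and 2 higher, and the median log2 fold change of the list was 0.031, against -0.42 with TMM. For this list and the serine and glycine list below, the shares of all genes tested were 13.1% lower and 13.2% higher. With library totals alone those shares were 5.29% and 41.6%. Leaving out Ctrl replicate 1 gave 1 higher. Shmt2, the mitochondrial serine hydroxymethyltransferase, was at 94.7, 89.9 and 124 CPM in IRF3-2D samples, against 205, 228 and 241 CPM in Ctrl samples, a 2.19-fold fall (adjusted p = 0.00159 by edgeR). Aldh1l1, which oxidises formyl-folate in the cytosol, fell 2.00-fold (adjusted p = 0.00103), and Fpgs, which traps folate in cells by adding glutamate, fell 1.92-fold (adjusted p = 0.00214). Serine and glycine genes went both ways, with 4 of 10 lower and 1 higher. These counts became 1 lower and 2 higher with library totals alone, and 2 lower when IRF3-2D replicate 1 or 2 or Ctrl replicate 2 was left out. In the glycine cleavage system, Gldc, which decarboxylates glycine, rose 1.50-fold (adjusted p = 0.0204), while Gcsh, the lipoyl carrier protein of the same complex, fell 1.68-fold (adjusted p = 0.000575). The call of Gldc was lost without IRF3-2D replicate 1 (0.60) or 3 (0.46) or Ctrl replicate 2 (0.53) or 3 (0.53). Glyctk fell 1.60-fold and Agxt 1.66-fold (adjusted p = 0.00644 and 0.0283), both lost with library totals alone (-0.23 and -0.29), and Agxt also without IRF3-2D replicate 1 (-0.63) or 2 (-0.68) or Ctrl replicate 1 (-0.57) or 2 (-0.76).

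Downstream of cysteine, 3 of 8 tested genes were called lower and 1 higher, against 13.1% and 13.2% of all genes tested. There were 2 lower and 2 higher with library totals alone, against 5.29% and 41.6% of all genes. When Ctrl replicate 3 was left out, 2 were higher. Suox, sulfite oxidase, the last step of sulfur amino acid breakdown, was at 42.6, 45.9 and 60.0 CPM in IRF3-2D samples, against 145, 144 and 164 CPM in Ctrl samples. That is a 3.05-fold fall (adjusted p = 0.000432 by edgeR). Tst, a mitochondrial sulfurtransferase, fell 1.68-fold (adjusted p = 0.00167). Mpst, a relative of Tst, fell 1.33-fold (adjusted p = 0.0234), a value that turned to 0.034 on the log2 scale with library totals alone and lost its call without IRF3-2D replicate 1 (-0.40) or 2 (-0.34) or Ctrl replicate 2 (-0.38) or 3 (-0.43). Papss2, which makes the sulfate donor PAPS, rose 1.40-fold (adjusted p = 0.0355), a call lost without any 1 IRF3-2D library (0.47 to 0.49).

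Of 8 glutathione genes, 4 were called lower and 1 higher, against 13.1% and 13.2% of all genes tested. Matching on library totals alone gave 1 lower and 3 higher, against 5.29% and 41.6% of all genes. Leaving out IRF3-2D replicate 2 gave 2 lower. Gclm, the modifier subunit of glutamate-cysteine ligase, rose 1.74-fold (31.4 ± 3.15 CPM in IRF3-2D and 18.1 ± 1.88 CPM in Ctrl; SD, n = 3 each; adjusted p = 0.00398 by edgeR). Chac1, which degrades glutathione, fell 3.85-fold, at 3.17, 2.57 and 3.27 CPM in IRF3-2D samples, against 9.30, 14.2 and 11.3 CPM in Ctrl samples (adjusted p = 0.00147). Chac2 and Ggt6 fell 1.62-fold and 1.83-fold (adjusted p = 0.00565 and 0.0161), both lost with library totals alone (-0.24 and -0.42), and Ggt6 also without IRF3-2D replicate 2 (-0.86).

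Among 13 genes of polyamines and methionine salvage, which use decarboxylated SAM and recover its methylthio group, 3 were called higher and 2 lower. Of all genes tested, 13.2% were higher and 13.1% lower. Library totals alone gave 7 higher and 0 lower, where 41.6% of all genes were called higher and 5.29% lower. Leaving out IRF3-2D replicate 1 gave 0 higher and 1 lower, leaving out IRF3-2D replicate 3 gave 1 higher and 1 lower, and leaving out Ctrl replicate 2 or 3 gave 1 higher. Amd1, the SAM decarboxylase, rose 1.38-fold (adjusted p = 0.0164 by edgeR), but 82.8% of its 31-base words are shared, most with Amd2, and the call was lost without IRF3-2D replicate 1 (0.46). Mtap, the first salvage enzyme, rose 1.30-fold (adjusted p = 0.0292), a call lost without any 1 library but IRF3-2D replicate 2 (0.32 to 0.43). The antizyme Oaz1 and the antizyme inhibitor Azin1 fell 1.51-fold and 1.44-fold (adjusted p = 0.00258 and 0.0173), and both calls were lost with library totals alone (-0.14 and -0.07). The call of Azin1 was also lost without IRF3-2D replicate 1 (-0.54) or 3 (-0.50).

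**Figure D4:**
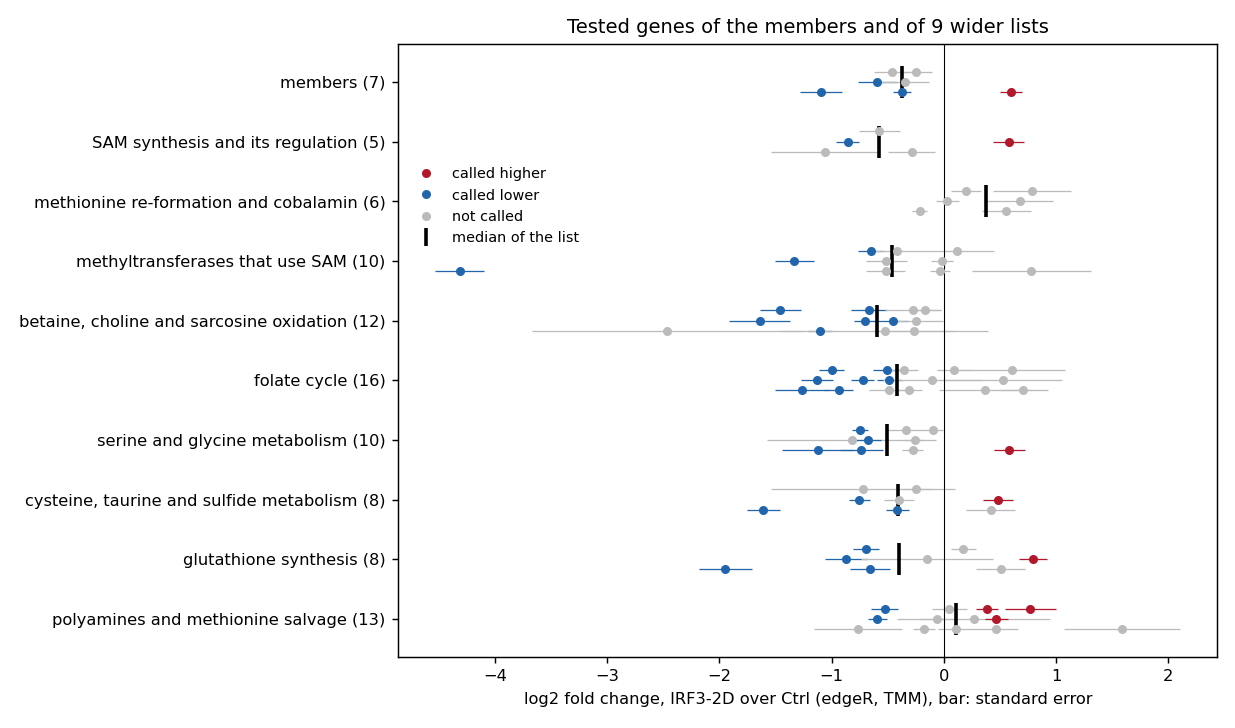
Log2 fold change (IRF3-2D over Ctrl, edgeR with TMM) of each tested gene of the members and of the 9 wider lists, 1 row per list with the number tested in brackets, bars for the standard error and a black mark for the median. Blue points (called lower) outnumber red points (called higher) in 6 of the 9 wider lists, and Inmt stands farthest left at -4.31.

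**Figure D5:**
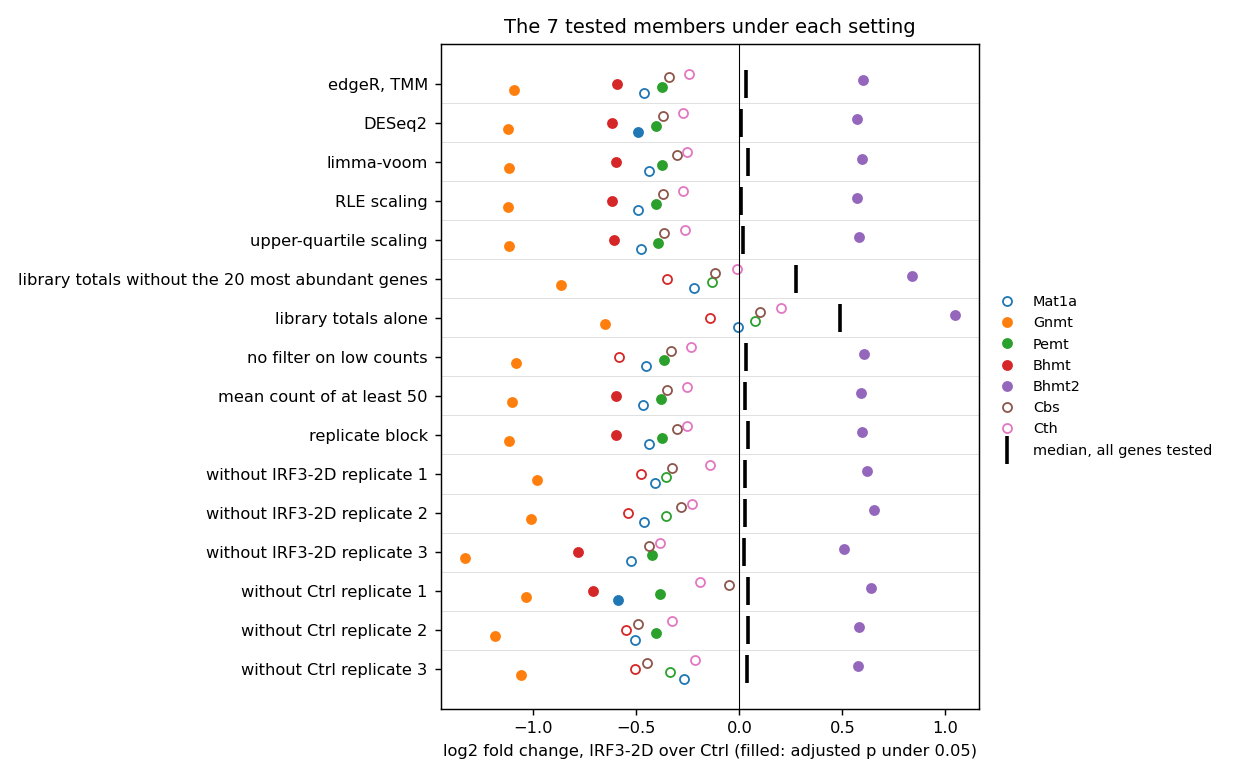
Log2 fold change (IRF3-2D over Ctrl) of the 7 tested members under each tool, scaling, filter and left-out library, filled where the adjusted p is under 0.05, with the median of all genes tested as a black mark. Gnmt and Bhmt2 are filled in every row, and with library totals alone the median of all genes moves to 0.49 and the members move with it.

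Less the median of all genes, which removes the shift of scaling by construction and so is no separate check, the log2 fold changes with library totals alone were -1.14 for Gnmt, -0.63 for Bhmt, -0.50 for Mat1a, -0.41 for Pemt, -0.39 for Cbs, -0.29 for Cth and 0.56 for Bhmt2.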

How the data were processed

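Poly-A RNA of 6 mouse liver samples was sequenced from strand-specific libraries, per the labels' protocols. The table that the authors deposited holds unnormalized estimated counts. The submitters' processing notes list Salmon 1.2.1, GRCm38 and mm10, giving no role. Annotation and rounding: not given in the sources used here. All values were whole and used as they stand. Of 20894 identifiers, 20817 matched GENCODE M21.

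After filterByExpr, edgeR 4.0.16 (R 4.3.3) fitted both groups with TMM, and its quasi-likelihood test gave p-values, adjusted by Benjamini-Hochberg. The standard error is the log2 fold change over the root of its F statistic. DESeq2 1.42.0 and limma 3.58.1 (voom) were alternatives. Ratios used counts plus 0.5. The script was tested on simulated counts. Word sharing is the percentage of a gene's 31-base transcript words found in another gene's transcripts. Ratios planned with Ahcy and Shmt1 were not computed, as both genes were below the filter. Whether replicates are separate mice is not stated, and the p-values rest on sample spread that may be technical. Members, lists and tests were chosen with earlier results of these data known. Named were all members, Irf3, the genes of the ratios, up to 4 called genes per wider list (or the smallest p), called neighbours and the 3 nearest profiles. A gene that this rule would name is not reported here.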

Additional observations from a re-analysis of the deposited data

How the results depend on the processing

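Gnmt and Bhmt2 kept their direction and call under each alternative tried. With library totals alone, 4497 genes were called higher and 571 lower, the wider lists had 25 higher and 14 lower, 1 member was lower, Bhmt was at -0.14 on the log2 scale, and Pemt (0.077), Cbs (0.10), Cth (0.20), Tcn2 (0.24) and Mpst (0.034) turned positive. With library totals without the 20 most abundant genes, an alternative chosen after seeing the data, 2804 genes were higher and 827 lower, the wider lists had 14 higher and 19 lower, 1 member was lower, and the values were -0.35 for Bhmt, -0.13 for Pemt and 0.027 for Tcn2. The median of all genes was 0.49 and 0.28 under these alternatives, against 0.03. With no filter on low counts Bhmt was at -0.58, and with DESeq2 Mat1a was called at -0.49. Leaving out 1 library at a time gave 854 to 1330 genes higher and 931 to 1371 lower, 1 to 4 members lower and 1 higher, and 2 to 7 wider genes higher and 21 to 29 lower. Log2 fold changes then ran from -0.78 to -0.48 for Bhmt, -0.59 to -0.27 for Mat1a, -0.42 to -0.34 for Pemt, -0.39 to -0.14 for Cth and -0.49 to -0.05 for Cbs, and the ratio of Cth to Cbs from -0.15 to 0.17. The cause of these changes was not tested.

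The labels state no pairing of samples by replicate number. For samples with the same number, the correlation of their deviations was 0.096, -0.034 and 0.045 for numbers 1, 2 and 3. With 3 samples per group these values cannot settle whether samples of a number were handled together. With the number as a replicate block, 1038 genes were higher and 1128 lower, 4 wider genes were higher, and the members kept their calls (Bhmt2 0.59, Gnmt -1.12, Bhmt -0.60, Pemt -0.37), while Agxt (-0.74), Mpst (-0.42), Papss2 (0.50), Mtap (0.38) and Rai1 (1.57) lost theirs. In blocked ratios the smallest p was 0.25, the lowest that 3 pairs allow. Counts were too low to test Ahcy and Shmt1.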
